A study of Bos taurus with 30 samples.

Results

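The genes described here encode the machinery that carries newly made secretory and membrane proteins into the endoplasmic reticulum (ER), folds them there and signals when folding falls behind. The set was defined by name, as 56 genes in 7 roles, and 50 of them have an entry among the 10476 genes of the bovine endometrial RNA-seq tables. HSPA5 (BiP, the main lumenal Hsp70 chaperone), DNAJB11, SDF2L1, TRIB3, SPCS1 and RPN1 have no entry under these names and were not analysed here. Cells were harvested by cytobrush, a small brush rolled along the uterine wall, from mixed-parity Holstein-Friesian dairy cows 7 days postpartum (DPP), and each cow was classified at 21 DPP. PVD cows had purulent vaginal discharge at 21 DPP, CYTO cows had cytological endometritis, that is more than 18% polymorphonuclear cells (PMN, mostly neutrophils) on a cytology slide at 21 DPP, and Healthy cows had neither. Healthy and CYTO cows were further divided by whether PMN at 7 DPP were above 18% (high PMN) or not (low PMN), and every PVD cow was in the high class. The groups were PVD with CYTO (n = 4), PVD alone (n = 4), CYTO with high PMN (n = 4), CYTO with low PMN (n = 5), Healthy with high PMN (n = 5) and Healthy with low PMN (n = 5), 27 cows in all, and single cows are named by their replicate number within PVD, CYTO or Healthy. No treatment is given for any cow, and each library came from 1 cow, so the spread between libraries is that between animals.

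Proteins bound for secretion are met on the ribosome by the signal recognition particle, handed to its receptor on the ER membrane and threaded through the Sec61 channel, where signal peptidase and the oligosaccharyltransferase act on them. In the lumen, chaperones and protein disulphide isomerases fold them, COPII coats carry folded cargo onward, and KDEL receptors bring escaped chaperones back. When unfolded protein accumulates, the sensors IRE1, PERK and ATF6 raise chaperones and degradation factors through XBP1, ATF4 and cleaved ATF6, which is the unfolded protein response. Uterine gland cells secrete heavily, and fibroblasts, plasma cells and macrophages also depend on this machinery, whereas mature neutrophils carry little ER.

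The libraries held 11922966 to 39202083 counted reads (median 23107772), so that 1 read was worth 0.0255 to 0.0839 CPM, the unit used here, which is the number of reads scaled to the library total, and no member had fewer than 57 reads in any of the 27 cows. Cell composition varied widely between brushes. The summed CPM of 11 measured neutrophil markers of 17 listed ranged over 874 to 27330 in PVD with CYTO cows, 631 to 6438 in PVD alone, 3867 to 7066 in CYTO with high PMN, 458 to 814 in CYTO with low PMN, 481 to 5680 in Healthy with high PMN and 119 to 863 in Healthy with low PMN. The summed CPM of 11 measured gland markers of 16 listed lay between 38850 and 77740 in 4 cows, 1 CYTO and 3 Healthy cows with low PMN, and at most at 6908 in the other 23. The same 4 cows had the highest sums of 16 measured epithelial markers, 4814 to 7558 CPM, against at most 3328 CPM elsewhere. They also had the lowest sums of 11 stromal markers, 270.6 to 2513 CPM, against at least 8433 CPM elsewhere. In such bulk samples, fewer cells of a type and less RNA per cell cannot be told apart.

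Together the 50 members took between 1.1% and 1.96% of the counted reads in all cows but 1. They made up 0.667% to 1.69% of reads in PVD with CYTO cows (median 1.54%), 1.36% to 1.72% in PVD alone (1.58%), 1.47% to 1.59% in CYTO with high PMN (1.54%), 1.33% to 1.5% in CYTO with low PMN (1.42%), 1.5% to 1.85% in Healthy with high PMN (1.64%) and 1.1% to 1.96% in Healthy with low PMN (1.58%). All the groups overlapped, and 1 library stood apart. PVD replicate 2, of the PVD with CYTO group, had the 0.667%, the lowest value of 40 of the 50 members and the highest of none. This was also the library with the highest neutrophil marker sum, 27330 CPM, and it held the lowest value of 48.8% and the highest of 7.58% of all genes listed. Between the 27 cows the members had a median SD of 0.44 on the log2(CPM + 1) scale, against 0.58 over all genes listed. PERK (EIF2AK3) varied least, with an SD of 0.26, and CREB3L1 and CREB3L2, transcription factors of secretory cells, varied most, with SDs of 0.70 and 0.74.

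**Figure D1:**
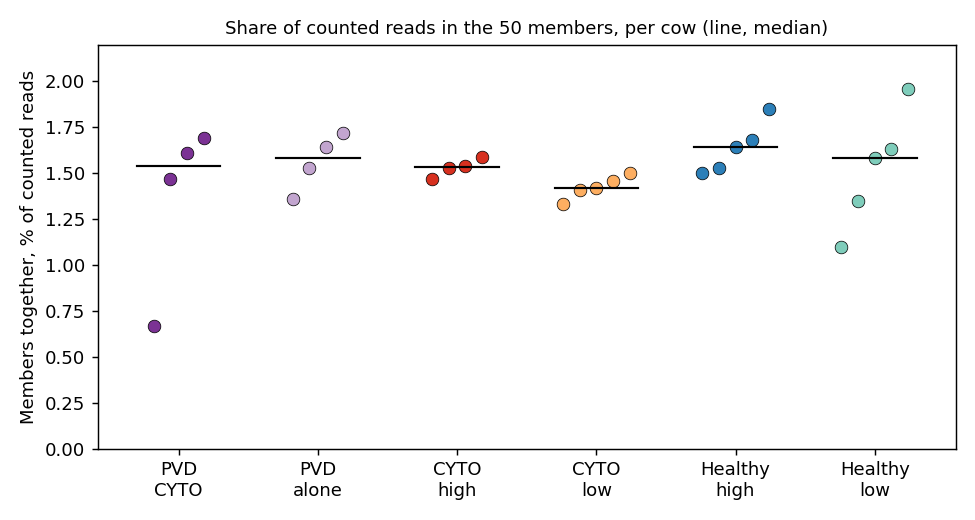
Share of counted reads, in percent, taken by the 50 members together in each of the 27 cows, by group; each point is a cow and each line a group median. The group medians lie between 1.42% and 1.64%, and PVD replicate 2 of the PVD with CYTO group lies alone at 0.667%.

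The question of which members differed with inflammation at 7 DPP was asked of the 19 Healthy and CYTO cows, 9 with high and 10 with low PMN, with the 21 DPP outcome as a covariate. The RNAs higher with high PMN were those of EDEM1 and HERPUD1 of ER-associated degradation, the isomerases P4HB, PDIA4 and PDIA6, the chaperone HYOU1 and the channel subunit SEC61A1. SRP9 of the signal recognition particle and SEC62 of the translocon were lower. These 9 of 50 members (18%) passed limma's test on log2(CPM + 1) at an adjusted p under 0.05 over all 10462 genes tested, against a background of 28.7% of genes. The background was 13% for higher and 15.8% for lower genes, and no set test was made. None of the 50 differed by more than 2-fold, whereas 12.5% of all genes were called with a log2 fold change beyond 1. The median size of the members' log2 fold change was 0.22, against 0.39 over all genes, and their median with sign was 0.05, against 0.02. Without the 4 gland-rich cows, leaving 9 cows with high and 6 with low PMN, no member and no other gene was called, while 14 members had an unadjusted p under 0.05 and the log2 fold changes of the 7 higher members lay between 0.36 and 0.62. In 1 fit of all 27 cows 3 members were called, EDEM1, SEC62 and SRP9, against 21.2% of genes, and the calls of P4HB, SEC61A1, HYOU1, HERPUD1, PDIA6 and PDIA4 were lost (limma adjusted p = 0.0601, 0.0589, 0.0884, 0.0728, 0.163 and 0.191) at log2 fold changes of 0.39 to 0.66.

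**Figure D2:**
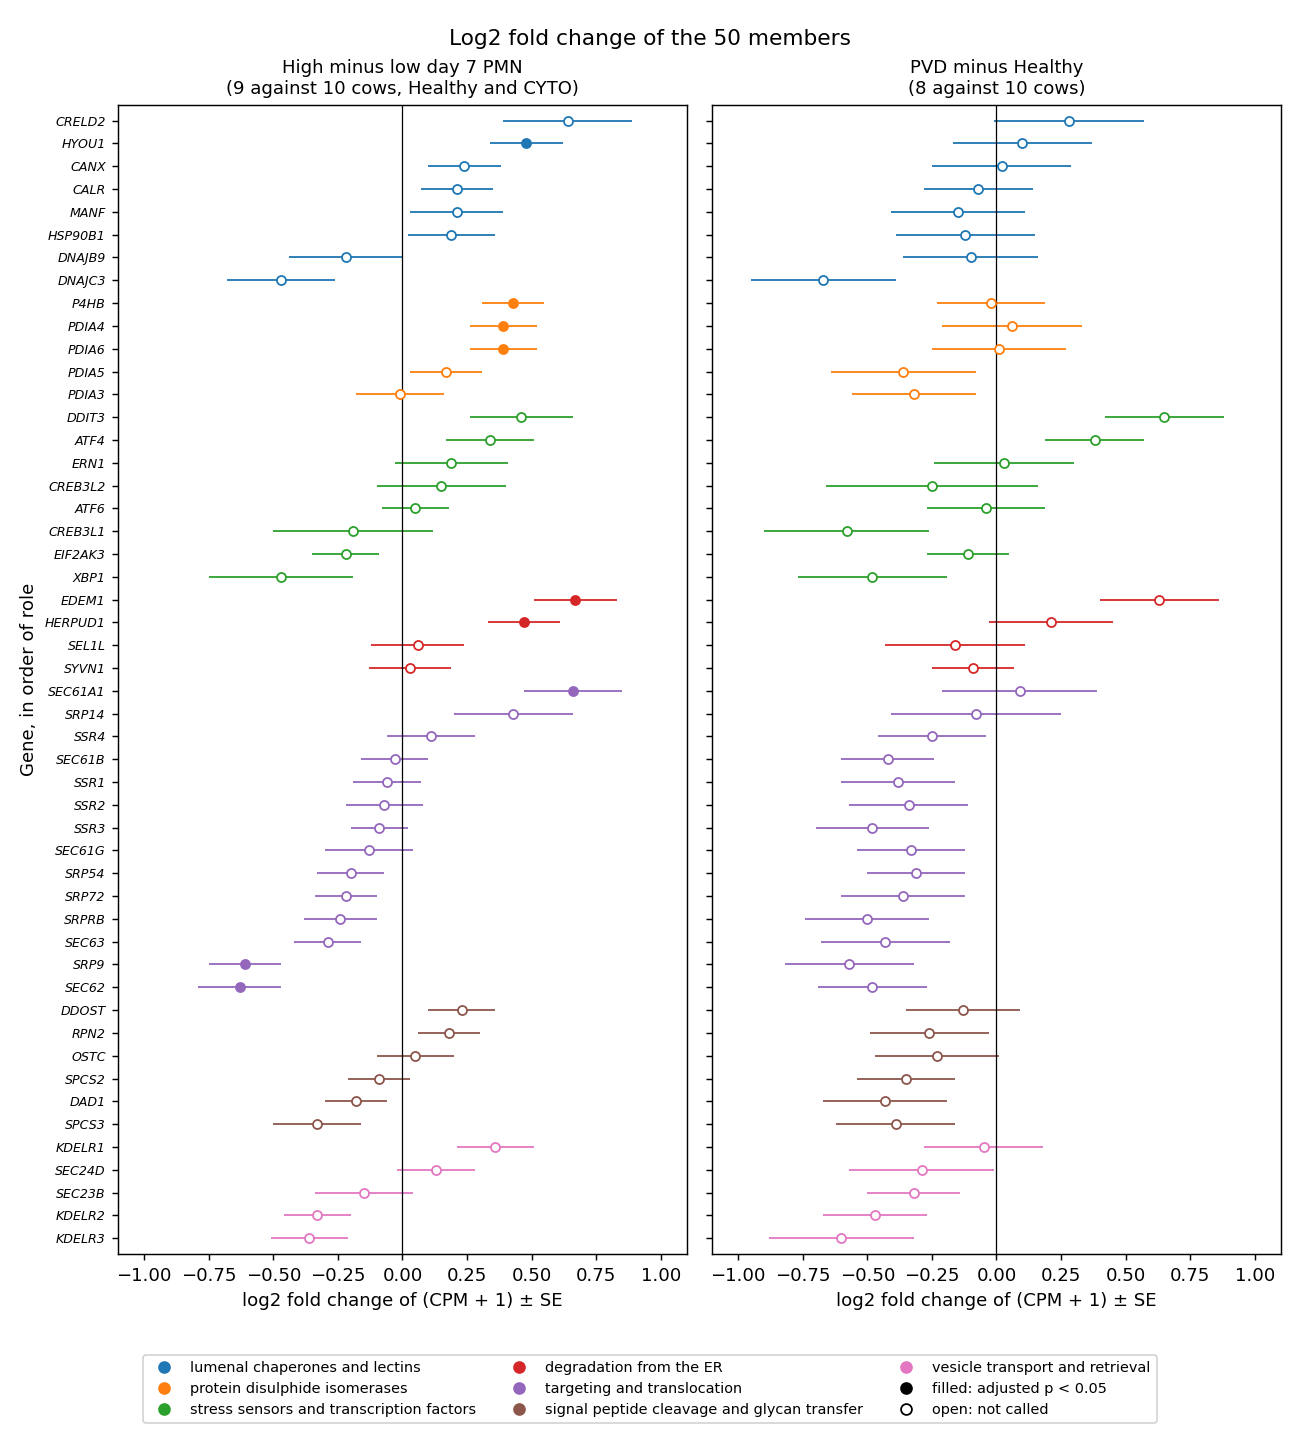
Log2 fold change of (CPM + 1) with its SE for each of the 50 members, in order of role, for high minus low PMN among 19 Healthy and CYTO cows (left panel) and for PVD minus Healthy cows (right panel); the Healthy cows are in both. Filled points passed an adjusted p under 0.05. The 9 filled points are all in the left panel, and the 13 targeting and translocation members left of zero at right, 12 with RLE scaling, are not called.

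Among the 4 members that remove misfolded proteins, EDEM1 and HERPUD1 were higher with high PMN, against 13% of all genes called higher. EDEM1, a lectin that takes misfolded glycoproteins out of the folding cycle, had 214, 216, 221 and 284 CPM in CYTO and 164, 195, 218, 232 and 238 CPM in Healthy cows with high PMN, against 142, 147, 159, 161 and 200.3 CPM in CYTO and 82.6, 90.8, 103, 146 and 217 CPM in Healthy cows with low PMN. Every cow with high PMN lay above 8 of the 10 with low PMN. The log2 fold change of EDEM1 was 0.67 ± 0.16 (SE; limma adjusted p = 0.00941), the largest rise among the members. HERPUD1, a membrane scaffold of the degradation complex, had 277, 332, 343 and 347 CPM in CYTO and 242, 272, 295, 351 and 376 CPM in Healthy cows with high PMN, against 193, 229, 244, 246 and 253 CPM in CYTO and 155, 192, 206, 212 and 380.2 CPM in Healthy cows with low PMN. All but 1 of the cows with high PMN exceeded 9 of the 10 with low PMN, but the highest of the 19 values belonged to a Healthy cow with low PMN. HERPUD1 rose by 0.47 ± 0.14 on the log2 scale (SE; limma adjusted p = 0.0201). The ubiquitin ligase SYVN1 and its partner SEL1L had log2 fold changes of 0.03 and 0.06 (limma adjusted p = 0.898 and 0.818).

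Of the 5 protein disulphide isomerases, which form and rearrange the disulphide bonds of secreted proteins, 3 were higher with high PMN. The share of all genes called higher was 13%. P4HB, which also serves as a subunit of collagen prolyl hydroxylase, had 1459, 1528, 1720 and 1747 CPM in CYTO and 1310, 1441, 1635, 1848 and 1935 CPM in Healthy cows with high PMN, against 1005, 1041, 1149, 1319 and 1425 CPM in CYTO and 918, 1198, 1220, 1386 and 1388 CPM in Healthy cows with low PMN. The lowest value with high PMN was the only one inside the low PMN range, and the log2 fold change was 0.43 ± 0.12 (SE; limma adjusted p = 0.0159). PDIA6 had 793, 847, 851 and 959.9 CPM in CYTO and 789, 903, 984, 992 and 1031 CPM in Healthy cows with high PMN, against 573, 700.2, 733, 745 and 793 CPM in CYTO and 431, 629, 657, 812 and 916 CPM in Healthy cows with low PMN. All cows with high PMN lay above the lowest 7 with low PMN (log2 fold change 0.39 ± 0.13, SE; limma adjusted p = 0.0311), though the call was lost without any 1 of 5 cows and with edgeR. For PDIA4 the values were 305, 327, 426 and 468 CPM in CYTO and 277, 424, 439, 487 and 516 CPM in Healthy cows with high PMN, against 277, 296, 297, 313 and 319.6 CPM in CYTO and 219, 303, 307, 320.4 and 415 CPM in Healthy cows with low PMN. The groups overlapped more for PDIA4, with 6 of the 9 cows with high PMN above every cow with low PMN (log2 fold change 0.39 ± 0.13, SE; limma adjusted p = 0.0379), and the call was lost without any 1 of 14 cows, at a limma adjusted p of at most 0.0754, and with edgeR. PDIA3, the partner of the calnexin cycle, had a log2 fold change of -0.01 and PDIA5 one of 0.17 (limma adjusted p = 0.969 and 0.352).

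Among 8 lumenal chaperones and lectins, HYOU1 was the 1 that was called, against 28.7% of all genes. HYOU1, a large Hsp70 relative that assists BiP, had 115, 142, 149 and 153 CPM in CYTO and 109.6, 128, 173, 186 and 194 CPM in Healthy cows with high PMN, against 82.04, 102, 117, 129 and 129.8 CPM in CYTO and 76.2, 84.3, 105, 114 and 129.9 CPM in Healthy cows with low PMN. In 6 of the 9 cows with high PMN it exceeded every cow with low PMN (log2 fold change 0.48 ± 0.14, SE; limma adjusted p = 0.0195). CRELD2, an ER-stress-induced isomerase-like protein, had 18.6, 25.9, 35.1 and 43.5 CPM in CYTO and 11.2, 24.9, 27.7, 27.8 and 37.9 CPM in Healthy cows with high PMN, against 9.53, 12.9, 14.2, 17.4 and 21.3 CPM in CYTO and 11.9, 12.3, 18.4, 27.5 and 29.8 CPM in Healthy cows with low PMN. Its log2 fold change was 0.64 ± 0.25 (SE), just outside the threshold at an adjusted p of 0.0553 with limma, and 1 Healthy cow with high PMN and 11.2 CPM lay among the lowest values. The lectins calreticulin (CALR) and calnexin (CANX), the Hsp90 chaperone HSP90B1 and the secreted stress factor MANF had log2 fold changes of 0.21, 0.24, 0.19 and 0.21, with limma adjusted p of 0.264, 0.185, 0.383 and 0.389. The co-chaperones DNAJB9 and DNAJC3 had values of -0.22 and -0.47 and were not called (limma adjusted p = 0.449 and 0.0979).

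Of the 14 members that target and translocate nascent chains, 1 was higher and 2 were lower, and 11 had a negative log2 fold change. Over all genes, 13% were called higher and 15.8% lower. SEC61A1, the pore-forming subunit of the channel, had 103, 167, 178 and 205 CPM in CYTO and 78.9, 134, 181, 193 and 239.5 CPM in Healthy cows with high PMN, against 82.2, 85.6, 88.97, 115 and 121 CPM in CYTO and 70.9, 84.8, 108, 121 and 123 CPM in Healthy cows with low PMN. In 7 of the 9 cows with high PMN it exceeded every cow with low PMN (log2 fold change 0.66 ± 0.19, SE; limma adjusted p = 0.0179). The other channel subunits were not called, SEC61B with a log2 fold change of -0.03 and SEC61G with one of -0.13 (limma adjusted p = 0.859 and 0.562). SEC62, a channel partner for short precursors that also marks ER for turnover, had 101, 106, 110 and 131 CPM in CYTO and 79.96, 105, 125, 133 and 170.1 CPM in Healthy cows with high PMN, against 147, 149.5, 151, 176 and 239 CPM in CYTO and 125, 152, 192, 212 and 295 CPM in Healthy cows with low PMN. It was below every cow with low PMN in 6 of the 9 cows with high PMN (log2 fold change -0.63 ± 0.16, SE; limma adjusted p = 0.0126).

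SRP9, the signal recognition particle subunit that slows translation together with SRP14, had 16.03, 16.9, 19.9 and 22.7 CPM in CYTO and 17.6, 18.7, 19.2, 21.8 and 30.03 CPM in Healthy cows with high PMN, against 23.9, 25.7, 28.7, 28.8 and 32.96 CPM in CYTO and 23.7, 26.7, 37.1, 37.5 and 52.7 CPM in Healthy cows with low PMN. All cows with high PMN except 1 Healthy cow lay below the lowest cow with low PMN (log2 fold change -0.61 ± 0.14, SE; limma adjusted p = 0.00917). SRP14, its partner, had a log2 fold change of the other sign, 0.43 ± 0.23 (SE), and was not called (limma adjusted p = 0.162). SRP54 and SRP72, further particle proteins, and SRPRB of the receptor had values of -0.20, -0.22 and -0.24, and the translocon partner SEC63 one of -0.29 (limma adjusted p between 0.0835 and 0.223). The translocon-associated SSR1, SSR2, SSR3 and SSR4 had values of -0.06, -0.07, -0.09 and 0.11, none of them called.

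**Figure D3:**
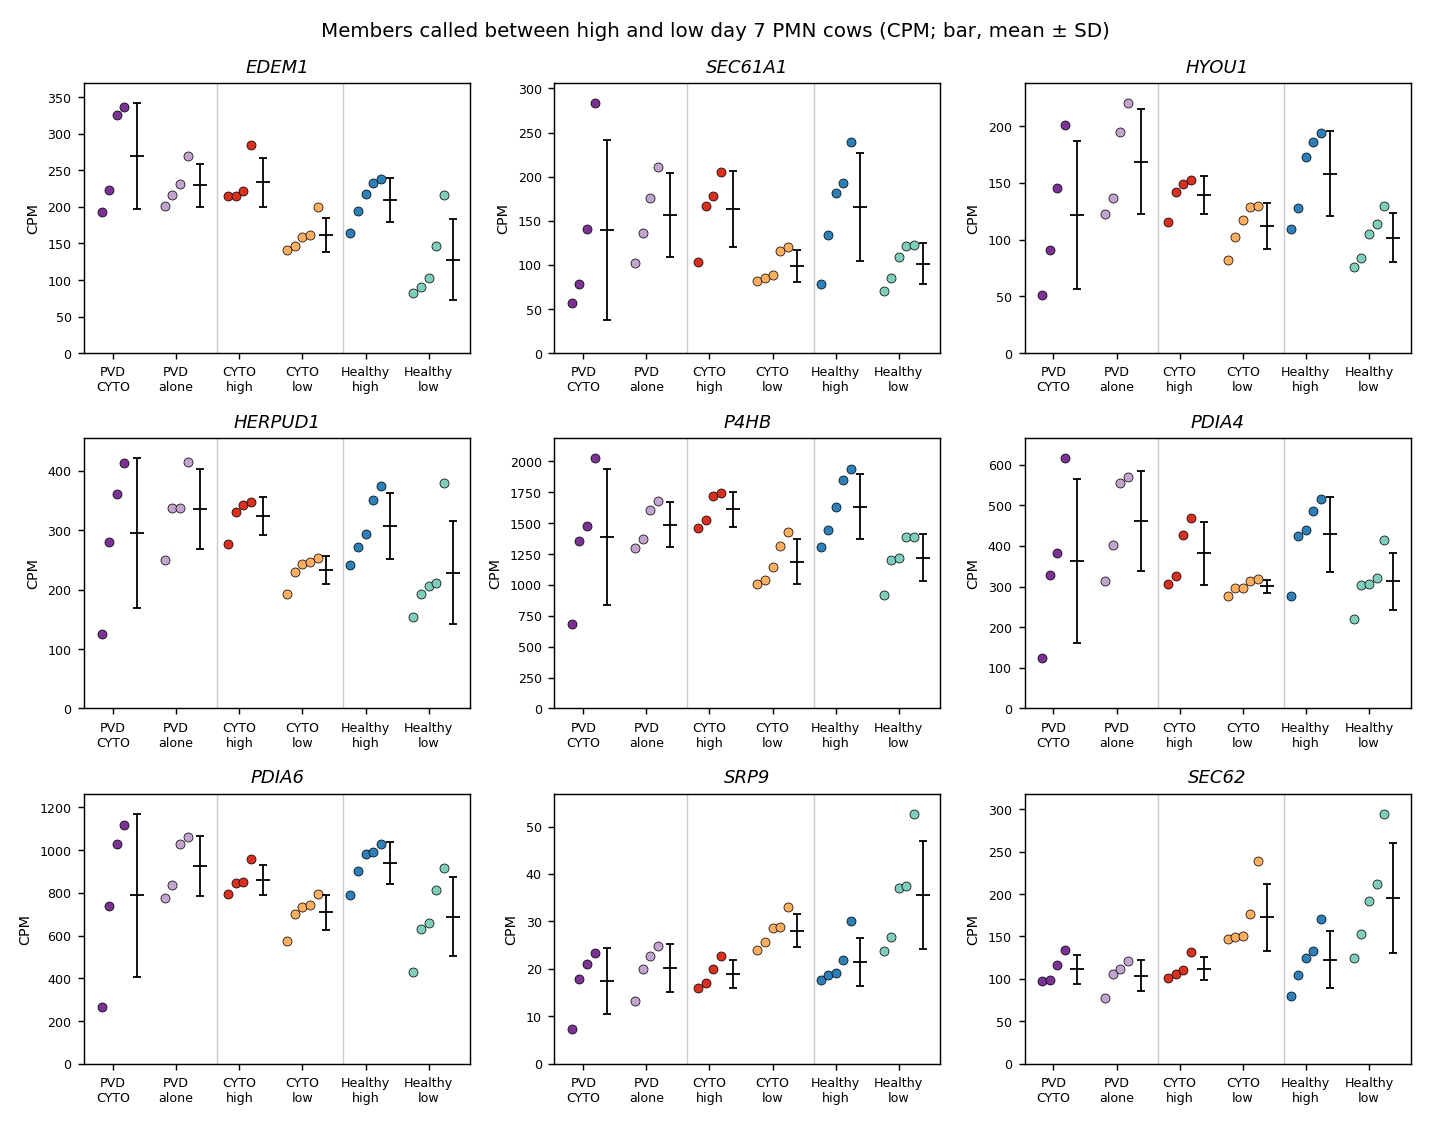
CPM of the 9 members called between high and low PMN, in each of the 27 cows by group; points are cows and bars the group mean with its SD, on axes that start at 0. EDEM1, with 82.6 to 217 CPM in Healthy cows with low PMN, shows the largest rise, and SRP9 and SEC62 are highest in low PMN cows.

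No member was called among the 6 that cleave signal peptides or transfer glycans and the 5 of vesicle transport, against 28.7% of all genes. The oligosaccharyltransferase subunits DDOST, RPN2, OSTC and DAD1 had log2 fold changes of 0.23, 0.18, 0.05 and -0.18, and the signal peptidase subunits SPCS2 and SPCS3 of -0.09 and -0.33 (limma adjusted p between 0.137 and 0.807). The KDEL receptors had different signs. KDELR1 had a log2 fold change of 0.36 ± 0.15, KDELR2 of -0.33 ± 0.13 and KDELR3 of -0.36 ± 0.15 (SE; limma adjusted p = 0.0799, 0.069 and 0.0834), and the COPII coat subunits SEC23B and SEC24D of -0.15 and 0.13.

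The gland-rich cows stood apart in XBP1, the transcription factor that IRE1 activates and that builds ER in secretory cells. XBP1 had 376, 413, 414 and 504 CPM in CYTO and 259, 321, 398, 474 and 498 CPM in Healthy cows with high PMN, against 289.5, 332, 349, 378 and 915 CPM in CYTO and 341, 450.1, 849.9, 1192 and 1259 CPM in Healthy cows with low PMN. The 850, 915, 1192 and 1259 CPM were those of the 4 cows richest in gland markers, and the highest value elsewhere was 504 CPM. XBP1 was not called between high and low PMN, with a log2 fold change of -0.47 ± 0.28 (SE; limma adjusted p = 0.202), and without the 4 cows the value was 0.18. DNAJC3, a co-chaperone that also restrains PERK, had 112, 121, 131 and 144 CPM in CYTO and 117, 125, 129, 143 and 193 CPM in Healthy cows with high PMN, against 124, 129, 129, 157 and 266 CPM in CYTO and 125, 141, 209.8, 295 and 433 CPM in Healthy cows with low PMN. Its values of 210 to 433 CPM in those 4 cows again exceeded the other 23, of which the highest was 193 CPM. In all, 6 of the 50 members had their 4 highest values in these 4 cows, against 5.23% of all genes listed. They were XBP1, DNAJC3, SEC62, SRP9, KDELR2 and SEC23B, and the stress factor DDIT3 had its 4 lowest values there, 16.1 to 22.8 CPM, as did 5.64% of genes. This description was made after the values were seen. The same 4 cows were the richest in epithelial and the poorest in stromal markers. Gland cells, other epithelium and a lack of stroma therefore cannot be told apart here. SRP9 and SEC62, the 2 lower members above, thus had their highest levels in gland-rich libraries, and without those 4 cows their log2 fold changes between high and low PMN were -0.39 and -0.37 (limma adjusted p = 0.0859 and 0.119). The higher members changed less in size, P4HB to 0.45, HYOU1 to 0.49, PDIA4 to 0.39, PDIA6 to 0.36, SEC61A1 to 0.62, EDEM1 to 0.54 and HERPUD1 to 0.37, with limma adjusted p between 0.0751 and 0.157.

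**Figure D4:**
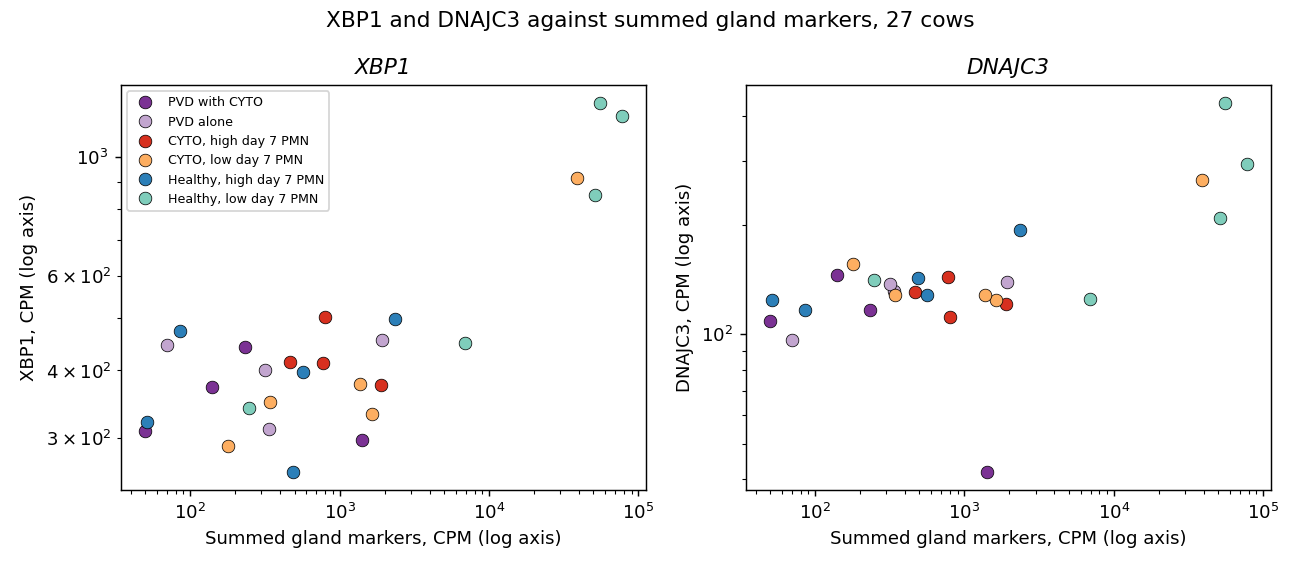
CPM of XBP1 (left panel) and DNAJC3 (right panel) against the summed CPM of 11 gland markers in 27 cows, coloured by group, on log axes. The 4 cows with gland sums of 38850 to 77740 CPM have the 4 highest values of both genes, and PVD replicate 2 has the lowest DNAJC3.

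Other cell markers moved with PMN beside these members. Between high and low PMN, 13% of all genes were called higher and 15.8% lower. All 11 neutrophil markers and 9 of 11 macrophage markers were called higher. Of 11 gland markers 8 were called lower, and of 16 epithelial markers 5 were called lower and 1 higher. The study of these same cows reports all 11 gland markers as higher in healthy or low PMN cows. Their being lower here is therefore not an independent observation. All 11 stromal markers had a positive log2 fold change (median 2.01, against 0.02 over all genes), and 3 were called higher. Their sum ranged from 270.6 to 52700 CPM between cows and was lowest in the 4 gland-rich cows. Also called higher were 1 of 2 B and plasma cell markers, 2 of 4 T and NK cell markers, 2 of 5 endothelial and 1 of 5 smooth muscle markers. The part of these cell types in the members' values was not tested. Healthy replicate 4, a cow with high PMN, had values within the low PMN range of SRP9, CRELD2, SEC61A1, P4HB and HYOU1, and without it 15 members (30%) were called, against 38% of genes.

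Taken outcome by outcome, 7 members were called between high and low PMN in CYTO cows and none in Healthy cows. In CYTO cows these were 7 of 50 members (14%), against 25% of all genes tested, and in 1 fit of all 27 cows 0 members were called, against 0.296% of genes. The 5 that were higher, against 7.8% of genes, were ATF4, CRELD2, EDEM1, HERPUD1 and SEC61A1, and the 2 that were lower, against 17.2%, were SEC62 and SRP9. ATF4, the transcription factor downstream of PERK and of amino acid shortage, gave the smallest adjusted p. It had 571, 578, 626 and 774 CPM in CYTO cows with high PMN, against 363, 371, 402, 429.6 and 440.1 CPM in CYTO cows with low PMN. These groups did not overlap, and the log2 fold change was 0.66 ± 0.13 (SE; limma adjusted p = 0.0112). CRELD2 had the largest value, 0.96 ± 0.28 (SE; limma adjusted p = 0.0363), and its groups overlapped. EDEM1, HERPUD1 and SEC61A1 had log2 fold changes of 0.53, 0.48 and 0.70 (limma adjusted p = 0.0272, 0.0261 and 0.0428), and SEC62 and SRP9 of -0.60 and -0.55 (limma adjusted p = 0.0308 and 0.0262). For 6 members the CYTO groups did not overlap, namely P4HB, ATF4, HERPUD1, EDEM1, SEC62 and SRP9, against 23.9% of all genes. Of all genes called here, 31.2% were higher, but 56.7% were after division of the CPM by relative log expression (RLE) factors, which moved the median of all genes by over 0.1 on the log2 scale. With that scaling 8 members (16%) were called, against 17.1% of genes, all of them higher, against 9.69% of genes, of which 5 were among the 7, and SEC62 and SRP9 were not called. Without CYTO replicate 3, 4, 6, 7, 8 or 10, each in turn, between 1 and 3 members were called, against 10.5% to 15.6% of genes.

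In Healthy cows 0 of 50 members and 0% of all genes were called between high and low PMN with limma. At an unadjusted p under 0.05 there were 6 members (12%), against 25.8% of genes. EDEM1 had a log2 fold change of 0.79 ± 0.27 (SE; limma adjusted p = 0.125), SRP14 of 0.81, XBP1 of -0.93 and SRP9 of -0.67. DESeq2 on recovered reads called 1 member, SRP9, lower, against 10% of genes, edgeR called none, and without Healthy replicate 5, which had low PMN and the highest HERPUD1 of its group, limma called 6 members, against 24% of genes. Healthy replicate 5 also had the highest stromal marker sum of the Healthy cows with low PMN, 24960 CPM, and the lowest gland marker sum, 248.9 CPM. The difference between the outcomes was tested itself: 0 of 50 members had a called interaction of outcome with PMN, against 0.0764% of genes, and 2 members had an unadjusted p under 0.05 by limma, against 16.2% of genes, with none called by edgeR or DESeq2. For ATF4, with a log2 fold change of 0.06 in Healthy cows and 0.66 in CYTO cows, the interaction was 0.60 ± 0.31 (SE; limma adjusted p = 0.331). XBP1 had the largest interaction, 0.98 ± 0.53 (SE; limma adjusted p = 0.344).

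The factors of the unfolded protein response were looked at one by one. ATF4 had 483, 606, 617 and 838 CPM in PVD with CYTO cows and 446, 528, 729 and 748 CPM in PVD alone, against 303, 457, 475, 506 and 752 CPM in Healthy cows with high PMN and 330, 392, 452, 545 and 643 CPM in Healthy cows with low PMN. DDIT3 (CHOP), a factor that ATF4 induces and that can lead to cell death, had 40.9, 42.2, 42.8 and 55.8 CPM in PVD with CYTO cows and 40.5, 45.9, 52.4 and 70.5 CPM in PVD alone, against 23.5, 24.1, 43.9, 45.6 and 56.04 CPM in Healthy cows with high PMN and 16.1, 20.4, 20.7, 34.9 and 42.1 CPM in Healthy cows with low PMN. All 8 PVD cows lay above the 4 lowest Healthy cows with low PMN and the 2 lowest with high PMN, and the groups overlapped. In CYTO cows DDIT3 had 36.9, 42.2, 44.4 and 48.9 CPM with high PMN, against 22.8, 27.8, 33.1, 39.95 and 43.04 CPM with low PMN. Over the 19 cows DDIT3 had a log2 fold change of 0.46 ± 0.20 and ATF4 of 0.34 ± 0.17 between high and low PMN (SE; limma adjusted p = 0.0887 and 0.124). The sensors ERN1 (IRE1), EIF2AK3 (PERK) and ATF6 had 0.19, -0.22 and 0.05, and CREB3L1 and CREB3L2 -0.19 and 0.15, with limma adjusted p between 0.199 and 0.774. These are RNA levels, which do not show splicing of XBP1 RNA, cleavage of ATF6 or translation of ATF4, the steps at which the response is switched on.

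**Figure D5:**
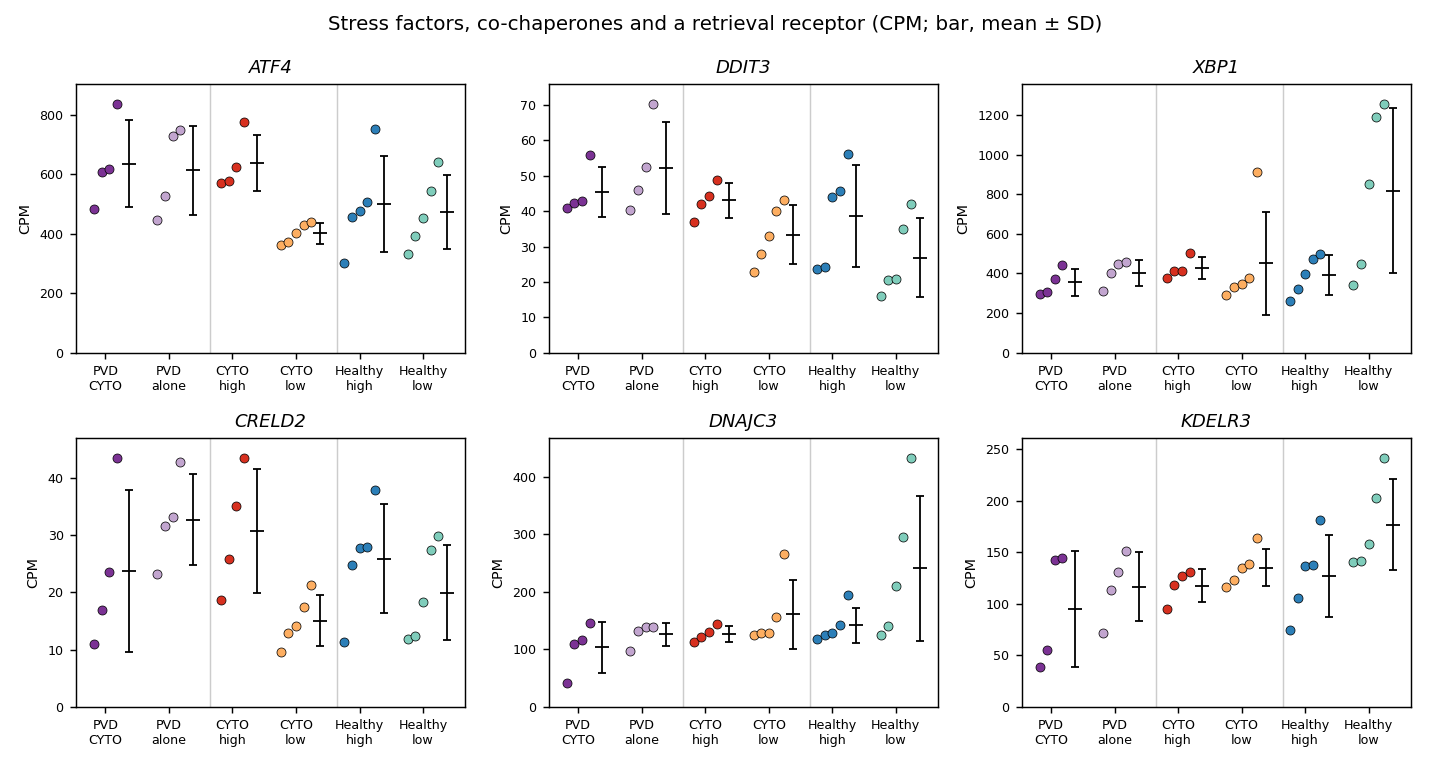
CPM of ATF4, DDIT3, XBP1, CRELD2, DNAJC3 and KDELR3 in each of the 27 cows by group; points are cows and bars the group mean with its SD, on axes that start at 0. ATF4 does not overlap between CYTO cows with high PMN (571 to 774 CPM) and with low PMN (363 to 440 CPM), and XBP1 exceeds 504 CPM only in 4 low PMN cows.

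Between the 8 PVD and the 10 Healthy cows, 0 of 50 members and 0% of 10454 genes were called with limma. At an unadjusted p under 0.05 there were 9 members (18%), against 21.3% of genes. Of these, 2 were higher, against 7.52% of genes, and 7 lower, against 13.7%. The log2 fold change was negative for 39 members and the median was -0.25, against -0.13 over all genes, and without PVD replicate 2 the median was -0.05. With RLE scaling 27 members were negative and the median was -0.08, against 0.03. DDIT3 had the highest value, 0.65 ± 0.23, and EDEM1 the next, 0.63 ± 0.23 (SE; limma adjusted p = 0.195 and 0.196). EDEM1 had 193, 223, 326 and 337 CPM in PVD with CYTO cows and 201, 217, 232 and 269 CPM in PVD alone, against 164, 195, 218, 232 and 238 CPM in Healthy cows with high PMN and 82.6, 90.8, 103, 146 and 217 CPM in Healthy cows with low PMN. The PVD values lay in and above the range of Healthy cows with high PMN and above 4 of the 5 with low PMN. DESeq2 on recovered reads called both genes, with adjusted p of 0.0324 for DDIT3 and 0.0396 for EDEM1, as did limma's single fit of 27 cows, with 0.0416 and 0.0275, and edgeR called no member. These 2 of 50 members (4%) stand against 8.7% of genes called by DESeq2 and 10.7% by the single fit.

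At the other end stood DNAJC3 and KDELR3. DNAJC3 had 41.9, 109, 117 and 146 CPM in PVD with CYTO cows and 96.7, 132, 138 and 139 CPM in PVD alone, against 117, 125, 129, 143 and 193 CPM in Healthy cows with high PMN and 125, 141, 209.8, 295 and 433 CPM in Healthy cows with low PMN. The lowest value was that of PVD replicate 2 and the 3 highest those of gland-rich Healthy cows (log2 fold change -0.67 ± 0.28, SE; limma adjusted p = 0.207). KDELR3, which retrieves ER proteins from the Golgi, had 38.2, 54.9, 142 and 144 CPM in PVD with CYTO cows and 71.5, 113, 131 and 151 CPM in PVD alone, against 74.9, 106, 136, 138 and 181 CPM in Healthy cows with high PMN and 140.3, 141, 158, 202 and 241 CPM in Healthy cows with low PMN. Both PVD groups overlapped both Healthy groups for KDELR3 (log2 fold change -0.60 ± 0.28, SE; limma adjusted p = 0.228). By role, the median log2 fold change was -0.37 for targeting and translocation, where 13 of 14 were negative, -0.31 for signal peptide cleavage and glycan transfer and -0.32 for vesicle transport, with 6 of 6 and 5 of 5 negative, and -0.02 for the isomerases, with none called. With RLE scaling 12 of 14, 5 of 6 and 4 of 5 of those 3 roles were negative, with medians of -0.20, -0.13 and -0.15, while the isomerases had a median of 0.16 and the chaperones of 0.09, against -0.09 without it. All these values by role include PVD replicate 2, which had the lowest value of 40 of the 50 members. Without that cow the median over all members was -0.05, against -0.25 with it, and medians by role were not taken.

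Set against cows of like PMN class, PVD cows showed no called member. In PVD with CYTO against Healthy with high PMN, 0 of 50 members and 0% of genes were called, 47 members had a negative log2 fold change and the median was -0.43, against -0.36 over all genes. Without PVD replicate 2 that median was -0.11, and with RLE scaling, which moved the median of all genes to 0.02, it was -0.03, with 28 members negative. The same held against PVD alone and against CYTO with high PMN, with 0 of 50 members and 0% of genes called in each. The medians there were -0.31 and -0.32, against -0.27 and -0.28 over all genes. Without PVD replicate 2 the member medians were 0.01 and -0.01. In PVD alone against Healthy with high PMN the median was -0.10, against -0.07 over all genes, with 0 of 50 members and 0% of genes called. None of the 4 comparisons had a member with an unadjusted p under 0.05 by limma, against 1.63% of genes for PVD with CYTO against Healthy with high PMN, 0.115% against PVD alone, 1.29% against CYTO with high PMN and 0.71% for PVD alone against Healthy with high PMN, and neither edgeR nor DESeq2 called a member in them.

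CYTO and Healthy cows were compared for the question of what precedes cytological endometritis. Over the 9 CYTO and 10 Healthy cows, 0 of 50 members were called, against 0% of genes, and none had an unadjusted p under 0.05 with limma, against 2.06% of genes (smallest adjusted p = 0.986), and edgeR and DESeq2 called none. The median log2 fold change was -0.08, against 0.08 over all genes, and it was -0.16 with RLE scaling, -0.18 with edgeR and -0.17 with DESeq2, against 0.00, -0.06 and -0.05 over all genes. The values lay between -0.33 for XBP1 and 0.27 for DDIT3. Among cows with high PMN, 0 of 50 members were called, against 0.412% of genes, and 0 had an unadjusted p under 0.05 with limma, against 4.83%. EdgeR and DESeq2 called none, and ATF4 had the highest value, 0.40 ± 0.25 (SE; limma adjusted p = 1). Among cows with low PMN the median log2 fold change was -0.03, against 0.20 over all genes, with 28 members negative. With RLE scaling, edgeR and DESeq2 it was -0.25, -0.28 and -0.28, against -0.01, -0.07 and -0.07, with 45 members negative in each. Cell markers also differed between these 2 groups on CPM as deposited. All 11 gland markers were lower in the CYTO cows (median log2 fold change -3.57) and all 11 stromal markers higher (3.57), none of them called. The part of cell composition in the members' shift was not tested. In this comparison 0 of 50 were called, against 0% of genes, and edgeR and DESeq2 called none. At an unadjusted p under 0.05 with limma there was 1 member, against 13.6% of genes. This was SEC61G, a small channel subunit singled out here after its values were seen. SEC61G had 88.8, 94.2, 95.7, 95.95 and 105 CPM in CYTO cows with low PMN, against 107, 115, 140, 173 and 185 CPM in Healthy cows with low PMN. The groups did not overlap, as for 0.796% of genes, but the change did not pass (log2 fold change -0.55 ± 0.17, SE; limma adjusted p = 0.365).

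Over all 6 groups at once, limma's F test called 3 members, EDEM1, SEC62 and SRP9 (adjusted p = 0.0131, 0.029 and 0.048), that is 6% of the 50, against 16.8% of genes. Without the 4 gland-rich cows it called none, and without Healthy replicate 2, 8 or 10, each 1 of those 4, it called 1, against 6.54% to 7.46% of genes, while 5 were called without Healthy replicate 5, against 28.7%.

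Further genes of the same pathways, listed apart from the members, were read in the same fits. Between high and low PMN, 13% of all genes were called higher and 15.8% lower, and no set test was made on these lists. Of 16 measured genes of stress signalling 5 were called higher and 4 lower, with a median log2 fold change of 0.30, against 0.02 over all genes. Of 30 genes of COPII and COPI coats and cargo receptors 0 were called higher and 8 lower (median -0.20). Of 21 genes of oxidative folding 1 was higher and 3 lower, of 20 of ER degradation 2 higher and 2 lower, of 16 of glycan transfer and trimming 0 higher and 2 lower, and of 7 of translocation 1 higher and 2 lower. In PVD against Healthy cows none of these lists had a called gene, against 0% of all genes. The stress signalling list there had a median of 0.17, against -0.13 over all genes.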

How the data were processed

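Polyadenylated, stranded libraries of 30 cytobrush samples were sequenced by the authors as single-end reads, aligned with STAR to UMD3.1, allowing 2 mismatches, and counted with featureCounts. The deposited values are CPM, which the authors computed from counted reads without a scaling factor after keeping genes with at least 1 CPM in 5 samples; all 314280 values were whole multiples of 1 read within 0.01. In 13 libraries too few low values remained to check this closely. Outcome groups came from the labels, which do not hold the subgroups; these came from the study's supplementary classification, matched by cow number and checked against the cows in each deposited table of a subgroup pair; 3 cows outside the study's set entered 1 alternative only. The authors' own fold changes and p-values were not used.

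Log2(CPM + 1) was fitted with limma 3.58.1 (trended empirical Bayes, R 4.3.3), for genes with at least 1 CPM in 5 libraries compared (4 where the smaller group had 4). P-values were adjusted by Benjamini-Hochberg over all genes tested and called under 0.05. The fit was tested on simulated counts that held larger changes than any member showed and no shifts in cell composition. That test therefore does not check the members' calls. Alternatives were a pseudocount of 0.1, no filter, RLE factors, edgeR 4.0.16 and DESeq2 1.42.0 on recovered reads, 1 fit of 27 cows and leaving out each cow. Values per cow were given for members called in any comparison, for the 2 highest and 2 lowest log2 fold changes of the PMN and PVD fits, and for XBP1, ATF4 and DDIT3. The members and lists were chosen with earlier results of these data known. Sequencing pools were not given in the sources used here.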

Additional observations from a re-analysis of the deposited data

Results flagged for a closer look

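In 90 tests of a cow standing apart within its group, 15 genes in 6 groups, 4 cows did so by Dixon's gap ratio on the log2(CPM + 1) scale; chance alone flags about 1 group in 20. EDEM1 reached 284 CPM in CYTO replicate 8, of the group with high PMN, where the next value was 221 CPM. XBP1 reached 915 CPM in CYTO replicate 1, of the group with low PMN, where the next value was 378 CPM, and this cow was 1 of the 4 rich in gland markers. DDIT3 reached 55.8 CPM in PVD replicate 4, of the PVD with CYTO group, against 42.8 CPM in the next cow. DNAJC3 was lowest in PVD replicate 7, of the PVD alone group, at 96.7 CPM, against 132 CPM in the next cow. No member had a called interaction of outcome with PMN (smallest limma adjusted p = 0.272). With 4 or 5 cows per group this does not show that the effects of PMN were equal. The interaction was positive for 24 of 50 members on CPM as deposited (median -0.05, against -0.25 over all genes). With RLE factors, edgeR and DESeq2 it was positive for 45, 44 and 45. Their medians were then 0.24, 0.27 and 0.29, against 0.03, 0.04 and 0.06 over all genes. Cell markers had an interaction too. On CPM as deposited it was positive for all 11 gland markers (median 3.60) and negative for all 11 stromal markers (-3.87), none of them called. The part of cell composition in the members' interaction was not tested.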

How the results depend on the processing

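For the 15 members chosen for values per cow, no called value reversed under any alternative in high against low PMN over both outcomes. In PVD against Healthy the main fit called 0 members, so no call of that fit could reverse. The calls that alternatives made there kept the sign of the main fit. Other members and other comparisons were not checked gene by gene for a reversal. Numbers of called members moved by more than 1.5 times in these cases. With DESeq2 on recovered reads there were 2 for PVD against Healthy (8.7% of all genes), 1 for Healthy high against low PMN (10%), 14 for CYTO high against low PMN (29.8%) and 17 over the 6 groups (33.4%). With 1 fit of 27 cows there were 2, 1 and 0 in the first 3 of these (10.7%, 14.6% and 0.296% of all genes), and 3 for high against low PMN over both outcomes (21.2%). Over the 6 groups there were 5 with RLE factors (18.2%) and 6 with edgeR (22.8%). Without the 4 gland-rich cows, an alternative chosen after seeing the data, there were 0 over the 6 groups and 0 for high against low PMN, and no other gene. The median log2 fold change of members moved to -0.03, -0.04 and 0.00 (RLE factors, edgeR and DESeq2) for PVD with CYTO against Healthy with high PMN, to 0.01, -0.01 and 0.02 against PVD alone, to 0.00, -0.01 and 0.02 against CYTO with high PMN, and to 0.24, 0.27 and 0.29 for the interaction, whose value was -0.05. RLE factors moved the median of all genes by over 0.1 in these, in PVD against Healthy, in CYTO with low PMN against Healthy with low PMN and in the PMN comparisons within Healthy and within CYTO cows.

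Leaving out 1 cow gave 1 to 10 called members for CYTO high against low PMN (10.5% to 35.4% of all genes), 7 to 15 for high against low PMN over both outcomes (19.8% to 38%), 0 to 6 for Healthy high against low PMN (0% to 24%) and 1 to 5 over the 6 groups (6.54% to 28.7%), and 0 in every other comparison. The medians then ranged over -0.31 to -0.05 for PVD against Healthy, -0.62 to -0.11 for PVD with CYTO against Healthy with high PMN, -0.47 to 0.01 against PVD alone and -0.50 to -0.01 against CYTO with high PMN. No paired analysis was possible because every cow belongs to a single group.

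Groups held 4 or 5 cows, which limits the size of change that is detectable. Cell composition differed between brushes and was not modelled. Whether counting used the strand is not given in the sources used here, so reads of genes that overlap on opposite strands cannot be told apart. Depth was no limit, since each member had at least 57 reads in every cow.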
